A study of Homo sapiens with 24 samples.

Results

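SOX and RUNX proteins are transcription factors that set the identity of cartilage cells. SOX9 starts chondrocyte differentiation and, with SOX5 and SOX6 (together the SOX trio), switches on collagen II and aggrecan, while SOX4 belongs to a separate SOX group that keeps skeletal progenitors alive and dividing. The RUNX proteins bind DNA as partners of the non-DNA-binding subunit CBFB; RUNX1 acts in early and articular chondrocytes, RUNX2 drives hypertrophy and bone formation and RUNX3 overlaps with both, and MEF2C acts with RUNX2 in hypertrophic cartilage. The genes examined were SOX9, SOX4, SOX5, SOX6, RUNX1, RUNX2, RUNX3, CBFB and MEF2C, 9 of the 62703 gene identifiers counted, chosen by symbol and matched to their Ensembl identifiers. SOX4, SOX5, RUNX1, RUNX2, RUNX3 and CBFB, 6 of the 9, passed the filter on low counts and were tested among 16600 genes, and SOX9, SOX6 and MEF2C did not.

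RNA-seq was performed in 6 groups of 4 libraries from T/C-28a2, a line of human chondrocytes immortalised with SV40 large T antigen. WT Ctr was the unmodified line in isotonic medium and WT Sor the same line in medium with 100 mM sorbitol, a sugar alcohol that raises osmolarity, for 7 days. WNK2 trans Ctr and WNK2 trans Sor were the unmodified line transfected with a plasmid for WNK2, a kinase of the WNK family that responds to osmotic and chloride changes, without and with sorbitol. WNK2- Ctr and WNK2- Sor were a single clonal line in which CRISPR/Cas9 had deleted exon 2 of WNK2, without and with sorbitol. The clone and the deletion cannot be told apart, nor can transfection and the WNK2 plasmid, since the controls were not transfected. What each replicate was is not stated beyond its number, so p-values measure the spread between libraries.

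Libraries held 14153002 to 25664619 counted reads, and each of the 24 was closest in expression to libraries of its own group. The level of WNK2 itself did not follow the labels in the isotonic groups of unmodified cells. Normalized WNK2 counts (counts divided by size factors that set the libraries to a common depth) were 2520 ± 901 (SD, n = 4) in WT Ctr, 3030 ± 707 in WNK2 trans Sor, 303 ± 19 in WT Sor and 252 ± 52.8 in the libraries labelled WNK2 trans Ctr. The last of these was 0.0999 times the WNK2 of WT Ctr (edgeR adjusted p = 3.88e-11), against the direction a WNK2 plasmid would give. WT Sor, untransfected like WT Ctr, was at 0.12 times WT Ctr (edgeR adjusted p = 1.52e-10). Between WT Sor and WNK2 trans Ctr, WNK2 did not pass (edgeR adjusted p = 0.434). Which of these labels is at odds with the cells cannot be told from the counts. The WNK2- groups held 407 ± 13.9 and 359 ± 46.1, which does not check the deletion because reads of the whole gene are counted. Comparisons that rest on WT Ctr or on the libraries labelled WNK2 trans Ctr were therefore repeated with the other of these groups as the reference. Of 9 chondrocyte markers, 6 passed the filter. SOX9 was listed at 0 and COL9A1 and CNMD were below the filter. COL2A1, which encodes collagen II, was at 0.675 ± 0.221 RPKM (CPM, counts scaled to a library total of 1000000, divided by the kilobases of exon of the gene) in WT Ctr. Another of these markers, HAPLN1, was at 11.6 ± 1.53 RPKM there. COL1A1, which encodes a chain of collagen I, was at 295 ± 50.4 RPKM, but COL1A2, which encodes the other chain, was at 0.035 ± 0.0337. Of the osteoblast markers, to which COL1A1 belongs, SP7, BGLAP and IBSP were below the filter.

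SOX9 (ENSG00000125398, GRCh38 chr17:72121020-72126420) was listed at 0 reads in 24 of 24 libraries. A count of 0 allows up to 3 reads, or 0.117 to 0.212 CPM over the libraries, a limit on reads assigned to the gene that covers counting error only. The 0 cannot be read as absence of SOX9 RNA from these tables, because genes that nearly every cell uses were also listed at 0. Of 26 such genes, chosen after values had been seen, TUBA1B, which encodes an alpha-tubulin, and SDHA, a subunit of the mitochondrial succinate dehydrogenase, had no read in any library. In all, 3132 of 19856 protein-coding genes of GENCODE 29 (15.8%) had no read in any library. The gene annotation release and strand setting used for counting are not given in the sources used here. In GENCODE 29 SOX9 lies within the span of the antisense gene SOX9-AS1 but shares 0 exonic bases with it or any other gene, and SOX9-AS1 held 10 reads in 5 libraries. The part of annotation in the 0 of SOX9 was not tested.

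The SOX reads that were listed came from other SOX genes, which does not show that any of them stood in for SOX9. Of its close relatives in the SOXE group, SOX8 had 169 reads over 21 libraries and SOX10, like SOX9, was listed at 0. Of the trio partners, SOX5 (ENSG00000134532, chr12:23529500-24562544) had 534 reads, 1 to 51 per library, and SOX6 (ENSG00000110693, chr11:15966449-16739591) had 60 reads, 0 to 12 per library with 4 libraries at 0. SOX4 (ENSG00000124766, chr6:21592768-21598619) had 34063 reads and was the most abundant SOX gene in every group of unmodified cells. Per length of exon, it made up 69.0% ± 7.28 of the reads of 19 SOX genes in WT Ctr, 73.1% ± 1.72 in WT Sor, 63.7% ± 1.94 in WNK2 trans Ctr and 67.2% ± 2.09 in WNK2 trans Sor. SOX9 and SOX12, which like SOX4 belongs to the SOXC group, are counted in these shares at their listed 0.

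In the WNK2- clone the SOX4 share was 28.6% ± 2.38 without and 18.9% ± 1.98 with sorbitol, and SOX13 had the higher mean share, with overlapping libraries without sorbitol. SOX13, a SOXD gene and so a relative of SOX5 and SOX6, was at 5.56 ± 0.239 RPKM without sorbitol and 6.13 ± 0.323 with it in the clone, where SOX4 was at 5.01 ± 0.430 and 3.09 ± 0.338. Its share of the SOX reads was 14.0% ± 3.88 in WT Ctr, 31.7% ± 1.07 in WNK2- Ctr and 37.5% ± 1.32 in WNK2- Sor. The summed SOX level fell alongside, from 29.9 ± 2.71 RPKM in WT Ctr to 17.6 ± 0.698 in WNK2- Ctr, so a larger share was not by itself a higher level.

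**Figure D1:**
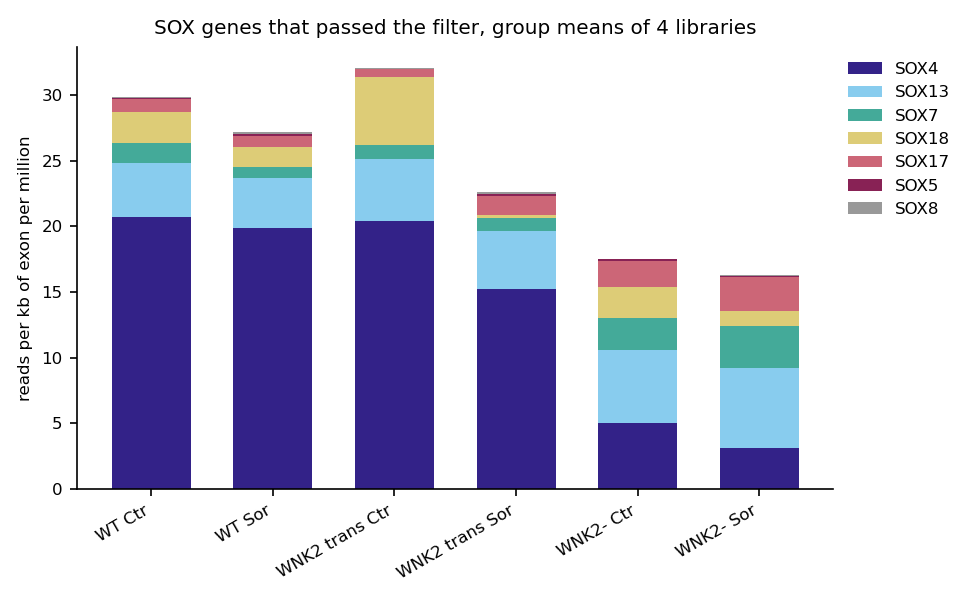
Mean level of the 7 SOX genes that passed the filter, in RPKM (y axis, reads per kilobase of exon at a library total of 1000000), stacked for each of the 6 groups (x axis; means of 4 libraries). SOX4 fills most of each bar in unmodified cells, and SOX13 is at 5.56 against 5.01 for SOX4 in WNK2- Ctr.

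SOX4 was the gene of this set that differed most between the clone and unmodified cells. Its normalized counts were 2230, 2740, 2010 and 1910 in the 4 WT Ctr libraries and 483, 568, 584 and 520 in WNK2- Ctr. With sorbitol they were 2160, 2200, 1970 and 2240 in WT Sor and 329, 333, 377 and 288 in WNK2- Sor. The lowest unmodified library stood far above the highest library of the clone in both media. SOX4 was lower in the clone by a log2 fold change of −2.04 ± 0.10 (SE) without sorbitol (edgeR adjusted p = 6.58e-14) and of −2.69 ± 0.11 with sorbitol (edgeR adjusted p = 2.1e-16). Against the libraries labelled WNK2 trans Ctr, whose 4 SOX4 values were 2090 to 2350, the difference without sorbitol was −2.03 ± 0.10.

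SOX4 was lower with sorbitol in the clone and in the transfected cells, and no change was detected in untransfected WT cells. From WNK2- Ctr to WNK2- Sor the log2 fold change was −0.70 ± 0.10 (edgeR adjusted p = 2.33e-05), and every WNK2- Sor library was below every WNK2- Ctr library. From WT Ctr to WT Sor it was −0.05 ± 0.10 (edgeR adjusted p = 0.737), with the libraries interleaved, and against WNK2 trans Ctr −0.04 ± 0.10. In the transfected cells the values were 1670, 1620, 1580 and 1670 with sorbitol, below all 4 libraries labelled WNK2 trans Ctr, and the log2 fold change was −0.43 ± 0.10 (edgeR adjusted p = 0.000954), or −0.44 ± 0.10 with WT Ctr as the reference. The response of the clone differed from that of WT by −0.65 ± 0.14 (interaction, edgeR adjusted p = 0.0049), and by −0.66 with WNK2 trans Ctr in place of WT Ctr.

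The other SOX genes of the fixed list, 15 besides those named at the outset, gave 5 that passed the filter. In the clone SOX13 rose in both media, by a log2 fold change of 0.43 ± 0.13 and 0.70 ± 0.13 (edgeR adjusted p = 0.009 and 7.47e-05), although against the libraries labelled WNK2 trans Ctr it was 0.23 ± 0.13 and did not pass. SOX7 and SOX17, SOXF genes known from blood vessel endothelium, also rose, SOX7 by 1.82 ± 0.23 and SOX17 by 1.65 ± 0.32 between WNK2- Sor and WT Sor (edgeR adjusted p = 3.1e-07 and 0.000164). SOX8 fell in the clone, from 15.7 ± 2.14 normalized counts in WT Sor to 4.76 ± 2.96 in WNK2- Sor. SOX18, the third SOXF gene, fell with sorbitol in the clone (−1.06 ± 0.31, edgeR adjusted p = 0.0203) and further in the transfected cells, from 177 ± 49.0 normalized counts in WNK2 trans Ctr to 9.43 ± 5.17 in WNK2 trans Sor (log2 fold change −4.25 ± 0.38, edgeR adjusted p = 1.38e-09), or by a log2 fold change of −3.12 ± 0.39 with WT Ctr as the reference. Endothelial markers, 4 of 4 above the filter, summed to 36.0 to 42.2 CPM in WT Ctr, 24.9 to 41.2 in WNK2 trans Ctr, 99.1 to 106 in WNK2 trans Sor and 24.3 to 29 in WNK2- Ctr. With sorbitol they summed to 59.4 to 67.0 CPM in WT and 35.6 to 45.4 CPM in the clone, lower where SOX7 and SOX17 were higher. Among them KDR and VWF rose and PECAM1 fell in the clone in both media, and CDH5 rose without sorbitol and did not pass with it. PECAM1, the highest of the 4 in WT Sor and in WNK2- Sor, was at 6.79 ± 0.514 and 3.09 ± 0.41 RPKM there. Between these groups the sum thus followed PECAM1 and not the list as a whole. In WNK2 trans Sor CDH5 was the highest, at 8.25 ± 0.736 RPKM against 6.49 ± 0.62 for PECAM1. In WNK2 trans Ctr CDH5 was at 0.189 ± 0.0346 RPKM and PECAM1 at 4.06 ± 0.85. The part of these markers in the SOXF values was not tested.

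SOX5 was counted too thinly to follow. Its normalized counts were 18.7, 13.9, 1.12 and 23.0 in WNK2 trans Ctr and 21.7, 34.1, 22.2 and 46.8 in WNK2 trans Sor, groups that overlapped. The log2 fold change was 1.15 ± 0.45 (edgeR adjusted p = 0.0374), and the call was lost without WNK2 trans Ctr replicates 2 or 3 or WNK2 trans Sor replicates 2 or 4 (edgeR adjusted p = 0.0686 to 0.143). Against WT Ctr it was 0.95 ± 0.45 and did not pass, and SOX5 passed the threshold in no other comparison. Without a filter on low counts, SOX6 did not pass either in any comparison.

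RUNX3 (ENSG00000020633, chr1:24899511-24965121) was the most abundant RUNX gene in every group. Per length it stood at 38.3 ± 5.57 RPKM in WT Ctr, against 7.43 ± 1.04 for RUNX1 (ENSG00000159216, chr21:34787801-36004667) and 5.20 ± 0.535 for RUNX2 (ENSG00000124813, chr6:45328157-45664349). CBFB (ENSG00000067955, chr16:67029116-67101058) was at 58.1 ± 4.78. In WT Ctr the descending order was CBFB, RUNX3, SOX4, RUNX1, RUNX2 and SOX5, and the libraries of neighbours in this order did not overlap. In WT Sor RUNX3, at 44.8 ± 0.616, stood above CBFB at 42.2 ± 1.35. In both groups of the clone RUNX1 stood above SOX4, while in WNK2 trans Sor SOX4 at 15.2 ± 0.417 and RUNX1 at 13.4 ± 1.72 overlapped.

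RUNX2 and RUNX3 each have a distal and a proximal promoter, and the counts sum over both, so the use of either cannot be read from them. The RefSeq promoter windows (GRCh38.p14, 250 bases before to 50 after the start) are shown because they differ in sites for the RUNX proteins themselves. Capitals mark the RUNX motif (ACCACA or, on the other strand, TGTGGT) and the AP-1 motif (TGANTCA, the binding site of FOS and JUN), which do not overlap here. The windows are RUNX2 distal at chr6:45328080-45328379 and proximal at chr6:45422025-45422324 on the plus strand, and RUNX3 distal at chr1:24964961-24965260 and proximal at chr1:24930227-24930526 on the minus strand.
RUNX2 distal: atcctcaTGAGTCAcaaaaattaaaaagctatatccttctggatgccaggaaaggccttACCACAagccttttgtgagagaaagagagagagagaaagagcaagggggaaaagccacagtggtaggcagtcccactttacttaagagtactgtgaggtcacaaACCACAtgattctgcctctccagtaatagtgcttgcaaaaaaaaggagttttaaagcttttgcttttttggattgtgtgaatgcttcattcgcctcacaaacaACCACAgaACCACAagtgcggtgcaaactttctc
RUNX2 proximal: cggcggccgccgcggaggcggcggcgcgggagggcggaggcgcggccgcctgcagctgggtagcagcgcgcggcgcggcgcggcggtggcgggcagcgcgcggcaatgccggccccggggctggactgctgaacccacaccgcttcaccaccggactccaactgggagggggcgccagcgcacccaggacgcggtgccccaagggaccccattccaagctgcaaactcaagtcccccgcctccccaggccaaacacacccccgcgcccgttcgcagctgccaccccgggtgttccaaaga
RUNX3 distal: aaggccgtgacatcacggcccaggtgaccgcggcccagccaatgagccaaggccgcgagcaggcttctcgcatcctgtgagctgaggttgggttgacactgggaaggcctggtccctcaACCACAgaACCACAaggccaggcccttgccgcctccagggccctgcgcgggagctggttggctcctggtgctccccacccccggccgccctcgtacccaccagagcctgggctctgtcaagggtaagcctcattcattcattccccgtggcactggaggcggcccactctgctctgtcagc
RUNX3 proximal: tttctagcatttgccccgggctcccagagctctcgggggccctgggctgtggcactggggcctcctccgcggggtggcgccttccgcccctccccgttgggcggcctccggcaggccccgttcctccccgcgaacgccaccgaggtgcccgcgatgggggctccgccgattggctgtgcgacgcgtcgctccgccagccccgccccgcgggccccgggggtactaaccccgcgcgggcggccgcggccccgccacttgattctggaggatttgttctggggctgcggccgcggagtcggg
The RUNX2 distal window held 4 RUNX motifs and 1 AP-1 motif and the RUNX3 distal window 2 RUNX motifs, and neither proximal window held one. Of 34943 RefSeq promoter windows of this length, 13.1% held at least 1 RUNX motif, 0.0143% held 4 or more and 7.72% held the AP-1 motif. The window listed for RUNX1 (chr21:34888650-34888949, minus strand) lies within the span of the gene, so a start further upstream was not examined. This window and that of SOX4 held neither motif nor a SOX motif (ACAAAG or ACAATG, either strand), and that of SOX5 held 2 of the form ACAATG. A match in letters is not evidence of binding.

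In the WNK2- clone the RUNX genes moved apart: RUNX2 and RUNX3 fell and RUNX1 rose. Of the 6 genes tested, 4 passed between WNK2- Ctr and WT Ctr, SOX4, RUNX2 and RUNX3 lower and RUNX1 higher, where 42.1% of all genes tested passed. The same 4 passed between WNK2- Sor and WT Sor (46.3% of all genes tested) and between WNK2- Ctr and WNK2 trans Ctr (47.7%), each in the same direction as in the first of these comparisons. With so many genes called, the count itself sets these genes little apart from the rest.

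RUNX2 normalized counts were 669, 815, 857 and 787 in WT Ctr and 384, 440, 439 and 486 in WNK2- Ctr. They were 779, 746, 804 and 838 in WT Sor and 210, 238, 256 and 254 in WNK2- Sor. The clone was below unmodified cells in every library of both media, by a log2 fold change of −0.84 ± 0.11 without sorbitol (edgeR adjusted p = 1.59e-06) and −1.73 ± 0.12 with it (edgeR adjusted p = 5.88e-12). Against the libraries labelled WNK2 trans Ctr, at 711, 659, 549 and 641, the difference without sorbitol was −0.55 ± 0.11 (edgeR adjusted p = 0.00026), smaller than against WT Ctr.

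RUNX3 normalized counts were 3410, 2640, 2970 and 3690 in WT Ctr and 2470, 2200, 2340 and 2350 in WNK2- Ctr. With sorbitol they were 3700, 3780, 3660 and 3730 in WT Sor and 1480, 1670, 1500 and 1570 in WNK2- Sor. The ranges did not overlap in either medium, and the log2 fold change was −0.44 ± 0.11 without sorbitol (edgeR adjusted p = 0.00204) and −1.26 ± 0.11 with it (edgeR adjusted p = 9.4e-10). With WNK2 trans Ctr as the reference it was −0.56 ± 0.11 without sorbitol.

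RUNX1 went the other way. Its normalized counts were 1700, 2140, 2320 and 2340 in WT Ctr and 3450, 3910, 3910 and 3750 in WNK2- Ctr, and 2030, 2110, 1930 and 1830 in WT Sor against 3920, 3630, 3930 and 3810 in WNK2- Sor. Every library of the clone was above every unmodified library in the same medium. The log2 fold change was 0.82 ± 0.10 without sorbitol (edgeR adjusted p = 4.77e-07), 0.95 ± 0.10 with it (edgeR adjusted p = 2.63e-08) and 0.74 ± 0.10 against WNK2 trans Ctr.

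**Figure D2:**
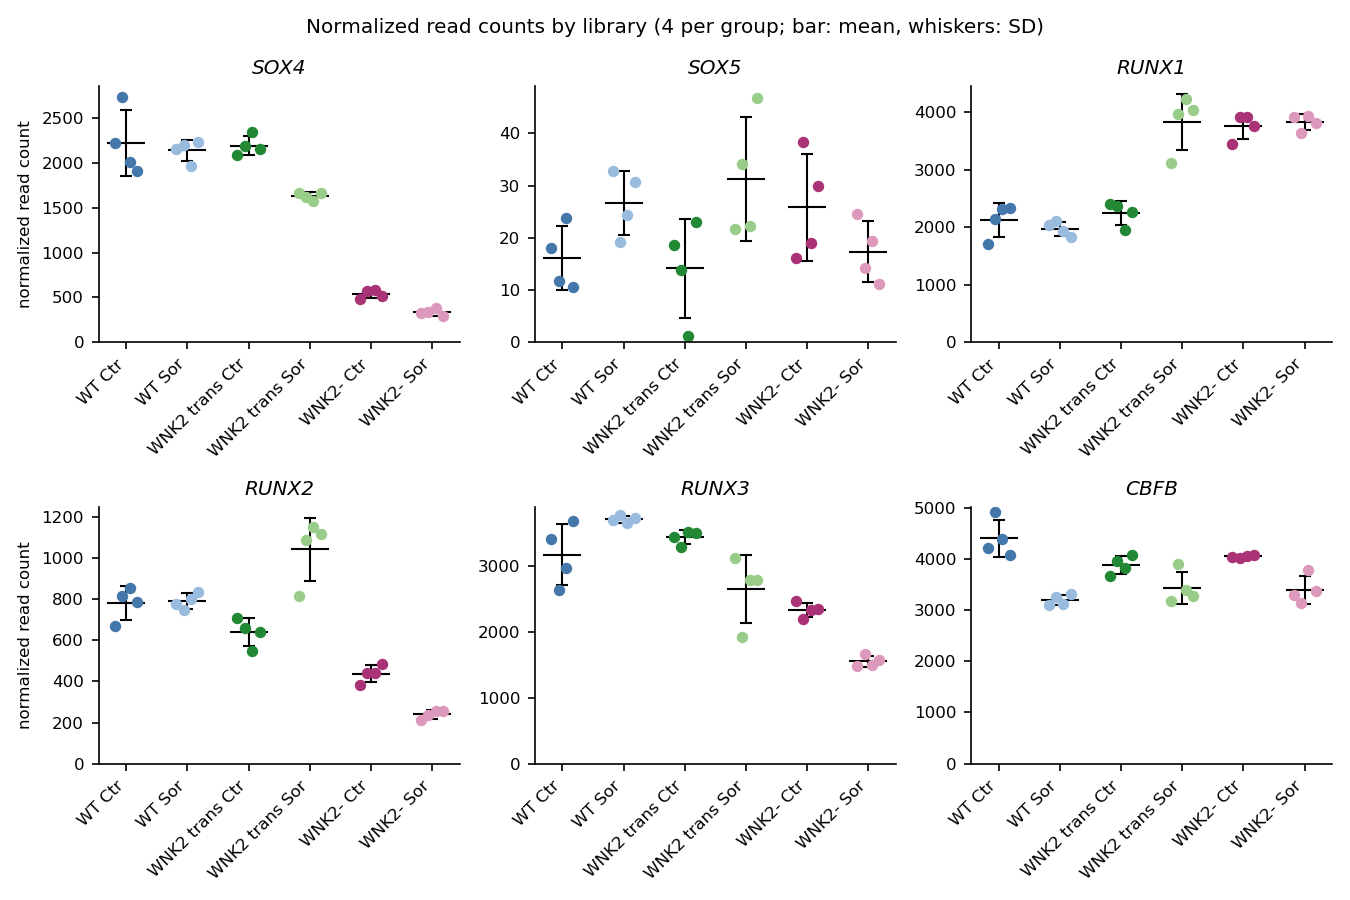
Normalized read counts (y axis, from 0) of the 6 tested genes in each library (points) of the 6 groups (x axis), with the group mean (bar) and SD (whiskers), n = 4. SOX4, RUNX2 and RUNX3 are lower and RUNX1 higher in the WNK2- groups than in WT, while SOX5 stays below 50 counts in every library.

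These genes also differed with sorbitol within the clone. Of the 6 tested, 4 fell from WNK2- Ctr to WNK2- Sor and 0 rose, where 14.9% of all genes tested passed and 6.64% fell. RUNX2 fell by 0.87 ± 0.12 on the log2 scale (edgeR adjusted p = 5.64e-06) and RUNX3 by 0.59 ± 0.11 (edgeR adjusted p = 0.000478), with no overlap of libraries. RUNX1 was at 3750 normalized counts without and 3820 with sorbitol (log2 fold change 0.03 ± 0.10, edgeR adjusted p = 0.901). In untransfected WT cells neither RUNX2 (0.02 ± 0.11) nor RUNX3 (0.23 ± 0.11, edgeR adjusted p = 0.135) passed, although RUNX3 passed without WT Ctr replicate 4 (edgeR adjusted p = 0.048) and with correction for GC content and gene length (edgeR adjusted p = 0.0222). RUNX1 there was at −0.10 ± 0.10, and passed with the same correction (−0.19, edgeR adjusted p = 0.00737). Against WNK2 trans Ctr, WT Sor was at 0.31 ± 0.11 for RUNX2, 0.11 ± 0.11 for RUNX3 and −0.18 ± 0.10 for RUNX1, and none passed.

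The clone's response to sorbitol differed from that of WT for RUNX2 by −0.89 ± 0.16 (interaction, edgeR adjusted p = 0.000786) and for RUNX3 by −0.81 ± 0.16 (edgeR adjusted p = 0.0014). With SOX4, 3 of the 6 passed this test, all lower in the clone, where 8.65% of all genes tested passed and 4.66% were lower. With WNK2 trans Ctr in place of WT Ctr as the isotonic group, the values were −1.18 for RUNX2 (edgeR adjusted p = 4.15e-05) and −0.70 for RUNX3 (edgeR adjusted p = 0.00868), and the same 3 genes passed.

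The RUNX genes made up different shares of their summed reads per length in the clone and in WNK2 trans Sor than in the other groups. RUNX3 was 75% ± 4.05 of the RUNX reads in WT Ctr, 78.6% ± 0.249 in WT Sor, 63.7% ± 2.40 in WNK2- Ctr and 55.6% ± 2.13 in WNK2- Sor. RUNX1 was 14.7% ± 2.40, 12.1% ± 0.665, 29.7% ± 1.96 and 39.7% ± 2.13 in the same order, and RUNX2 was 10.3% ± 1.72, 9.24% ± 0.534, 6.58% ± 0.631 and 4.72% ± 0.387. In the transfected cells RUNX3 was 77.4% ± 2.01 without and 60.8% ± 7.14 with sorbitol, RUNX1 14.6% ± 1.27 and 25.8% ± 4.55, and RUNX2 7.94% ± 0.760 and 13.4% ± 2.60. The summed RUNX level was 50.9 ± 5.42 RPKM in WT Ctr, 57.0 ± 0.706 in WT Sor, 53.6 ± 1.14 in WNK2 trans Ctr, 52.3 ± 5.48 in WNK2 trans Sor, 44.2 ± 0.780 in WNK2- Ctr and 33.7 ± 0.624 in WNK2- Sor. These shares are given as descriptions, without a test.

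**Figure D3:**
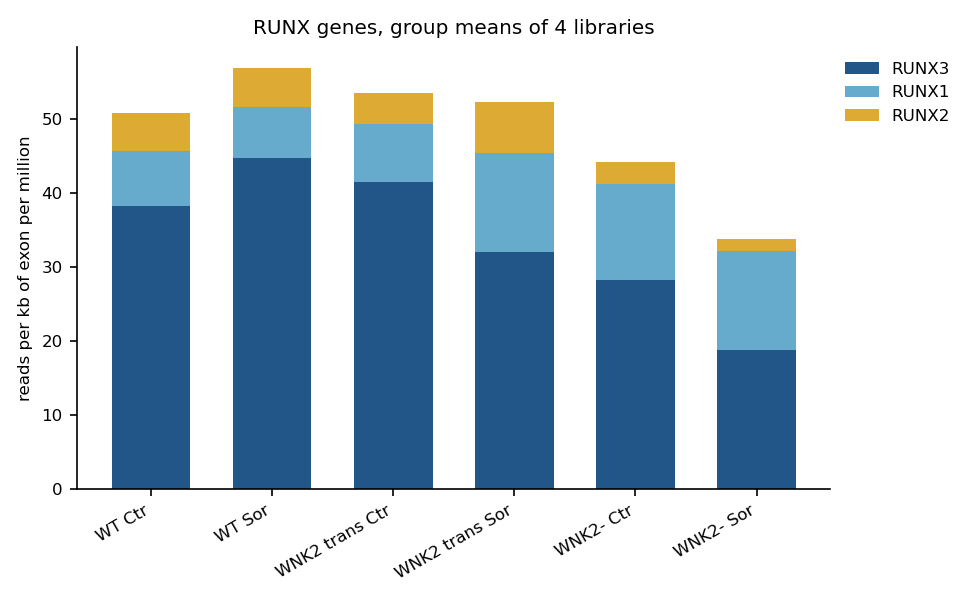
Mean levels of RUNX3, RUNX1 and RUNX2 in RPKM (y axis, reads per kilobase of exon at a library total of 1000000), stacked for each of the 6 groups (x axis; means of 4 libraries). The summed bar is 50.9 in WT Ctr and 33.7 in WNK2- Sor, and the RUNX1 part is largest, as a share, in WNK2- Sor at 39.7%.

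In the transfected cells RUNX1 and RUNX2 rose with sorbitol and RUNX3 and SOX4 fell. Of the 6 genes tested, 5 passed between WNK2 trans Sor and WNK2 trans Ctr, where 48.0% of all genes tested passed. RUNX1 normalized counts were 2400, 2370, 1950 and 2260 in WNK2 trans Ctr and 3110, 3960, 4220 and 4030 in WNK2 trans Sor, with no overlap (log2 fold change 0.77 ± 0.10, edgeR adjusted p = 9.27e-07). RUNX2 reached 816, 1090, 1150 and 1120 in WNK2 trans Sor, above all WNK2 trans Ctr libraries (0.71 ± 0.11, edgeR adjusted p = 1.21e-05). RUNX3 was at 3450, 3300, 3520 and 3510 in WNK2 trans Ctr and 3120, 1920, 2800 and 2790 in WNK2 trans Sor (−0.37 ± 0.11, edgeR adjusted p = 0.00666), but with correction for GC content and gene length the difference was −0.12 and did not pass (edgeR adjusted p = 0.195), nor did it with only the 8 libraries compared in the fit (edgeR adjusted p = 0.066).

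Taking WT Ctr as the isotonic reference for WNK2 trans Sor, where 39.2% of all genes tested passed, RUNX1 (0.85 ± 0.10) and RUNX2 (0.42 ± 0.11) were again higher and SOX4 and CBFB (−0.36 ± 0.08, edgeR adjusted p = 0.000768) lower, while RUNX3 did not pass (−0.26 ± 0.11, edgeR adjusted p = 0.0633) unless WT Ctr replicate 2 or WNK2 trans Sor replicate 1 was left out (edgeR adjusted p = 0.0184 and 0.0136). Against WT Sor, which shares the medium and involves neither WT Ctr nor WNK2 trans Ctr, 4 of the 6 passed where 31.7% of all genes tested did. RUNX1 was higher by 0.96 ± 0.10 (edgeR adjusted p = 9.9e-08) and RUNX2 by 0.40 ± 0.11 (edgeR adjusted p = 0.00757), and RUNX3 was lower by a log2 fold change of −0.49 ± 0.11 (edgeR adjusted p = 0.0014) and SOX4 by −0.39 ± 0.10 (edgeR adjusted p = 0.00375). Libraries did not overlap for RUNX1, RUNX3 and SOX4, and did for RUNX2.

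Without sorbitol, by edgeR 0 of the 6 passed between WNK2 trans Ctr and WT Ctr, where 12.5% of all genes tested passed. RUNX2 (−0.29 ± 0.11) and CBFB (−0.18 ± 0.08) had unadjusted p under 0.05, at 0.0159 and 0.0287. For CBFB the WNK2 trans Ctr libraries were below those of WT Ctr only by less than the rounding, since replicate 4 of each group was at 4090 normalized counts. RUNX2 passed without WT Ctr replicate 1 (edgeR adjusted p = 0.0337) and with correction for GC content and gene length (edgeR adjusted p = 0.0433).

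The response to sorbitol differed between transfected and untransfected cells for 5 of the 6 genes, where 35.5% of all genes tested passed this interaction test. The differences were 0.88 ± 0.14 for RUNX1 (edgeR adjusted p = 3.53e-05), 0.69 ± 0.16 for RUNX2 (edgeR adjusted p = 0.00135) and −0.60 ± 0.15 for RUNX3 (edgeR adjusted p = 0.0037). Those for SOX4 (−0.37 ± 0.14, edgeR adjusted p = 0.039) and CBFB (0.28 ± 0.11, edgeR adjusted p = 0.0471) were near the threshold. SOX4 lost the call without any of 9 single libraries (edgeR adjusted p = 0.0516 to 0.0738), namely WT Ctr replicates 1, 3 or 4, WT Sor replicates 1, 2 or 4, WNK2 trans Ctr replicates 2 or 3, or WNK2 trans Sor replicate 3. CBFB lost it without any of 13 (edgeR adjusted p = 0.0501 to 0.145), all but WT Ctr replicates 1 and 4 and WNK2 trans Sor replicate 1, and with correction for GC content and gene length it was −0.02. SOX4 also lost it with RLE size factors, without a filter on low counts and with only the libraries compared (edgeR adjusted p = 0.0533 to 0.0607), and CBFB without a filter, with only the libraries compared and with a replicate block (edgeR adjusted p = 0.0554 to 0.233).

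WT Ctr and WNK2 trans Ctr both enter this test. With each sorbitol group set against the other isotonic group, an alternative added after seeing the data, only RUNX1 passed (1.04, edgeR adjusted p = 5.91e-05). RUNX2 was then at 0.11 (edgeR adjusted p = 0.769), RUNX3 at −0.37 (edgeR adjusted p = 0.181), SOX4 at −0.41 (edgeR adjusted p = 0.0904) and CBFB, with its direction turned, at −0.08 (edgeR adjusted p = 0.764). For RUNX2, RUNX3 and CBFB the size of the difference thus depended on the isotonic reference. For SOX4 it did not, at −0.37 and −0.41, and only the call was lost, as under the alternatives given above.

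**Figure D4:**
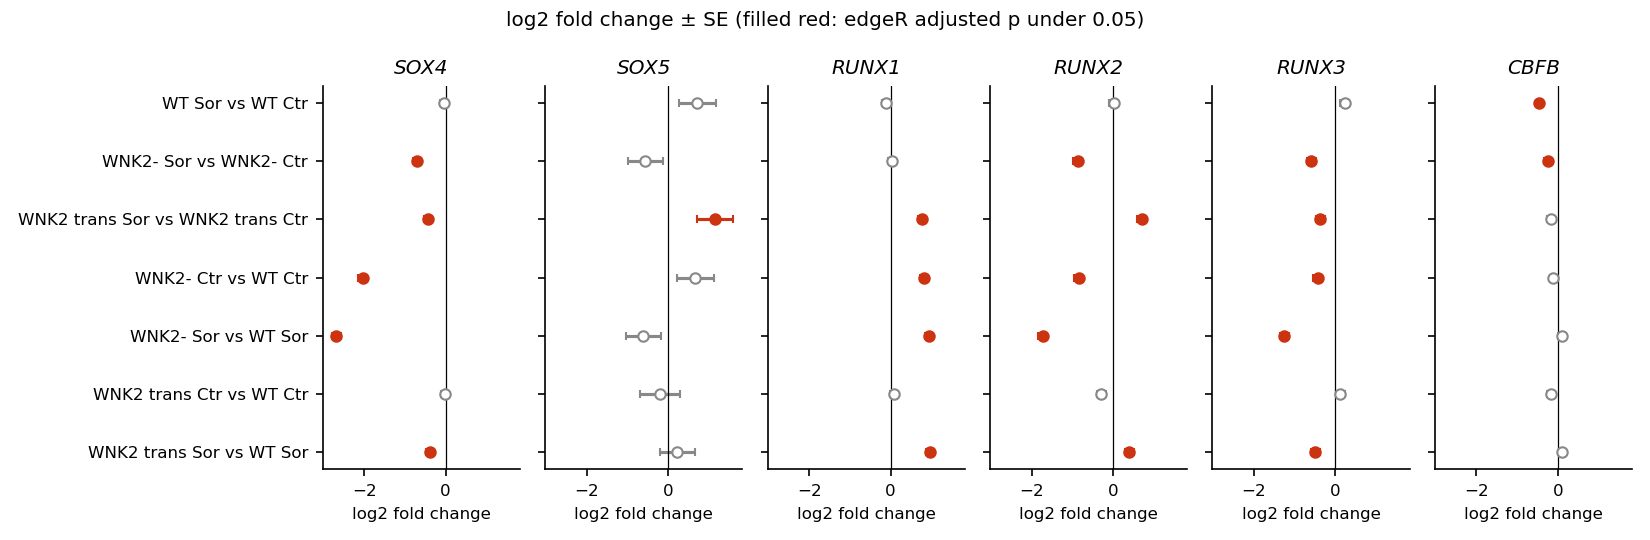
log2 fold change (x axis) with its standard error for 6 genes (panels) in 7 comparisons (y axis), first group minus second. Filled red points passed at edgeR adjusted p under 0.05. RUNX1 and RUNX2 lie on opposite sides of 0 in the comparisons of WNK2- with WT and on the same side in those of WNK2 trans Sor.

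CBFB, the shared partner, was the only one of the 6 genes to pass between WT Sor and WT Ctr, where 24.1% of all genes tested passed. Its normalized counts were 4220, 4920, 4390 and 4090 in WT Ctr and 3110, 3260, 3120 and 3320 in WT Sor, with no overlap (log2 fold change −0.46 ± 0.08, edgeR adjusted p = 0.000136). Against WNK2 trans Ctr, at 3670, 3970, 3820 and 4090, the log2 fold change of WT Sor was −0.28 ± 0.08 (edgeR adjusted p = 0.0152), a smaller difference, and CBFB was again the only one of the 6 to pass where 15.1% of all genes tested did. RUNX2, at 0.31 ± 0.11 (edgeR adjusted p = 0.0649), passed there under several alternatives: without WNK2 trans Ctr replicate 1, with at least 10 counts in every library, with only the libraries compared, with GC and length correction (edgeR adjusted p = 0.0113 to 0.0432) and with DESeq2 (adjusted p = 0.0469).

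In the clone CBFB was at 4040, 4020, 4070 and 4090 without and 3300, 3150, 3780 and 3370 with sorbitol (−0.25 ± 0.08, edgeR adjusted p = 0.0262), and the call was lost without WNK2- Ctr replicate 4 or WNK2- Sor replicates 1, 2 or 4 (edgeR adjusted p = 0.051 to 0.0876) and without a filter on low counts (edgeR adjusted p = 0.066). In WNK2 trans Sor it was lower than in WT Ctr by a log2 fold change of −0.36 ± 0.08 (edgeR adjusted p = 0.000768), with no overlap of libraries. Against WNK2 trans Ctr it was −0.18 ± 0.08 (edgeR adjusted p = 0.0636), and passed without WNK2 trans Ctr replicate 1 or WNK2 trans Sor replicate 2 (edgeR adjusted p = 0.0408 and 0.012) and with correction for GC content and gene length (edgeR adjusted p = 5.55e-05). The clone and WT did not differ detectably in CBFB in either medium, at −0.12 ± 0.08 and 0.09 ± 0.08.

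The summed RUNX level relative to CBFB, per length, was 0.885 ± 0.159 in WT Ctr, 1.35 ± 0.0365 in WT Sor, 1.05 ± 0.0588 in WNK2 trans Ctr, 1.17 ± 0.207 in WNK2 trans Sor, 0.826 ± 0.0098 in WNK2- Ctr and 0.755 ± 0.0638 in WNK2- Sor. WT Sor libraries, at 1.30 to 1.39, were above all others, the highest of which belonged to WNK2 trans Sor at 1.28. This ratio was chosen after values had been seen and was not tested.

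MEF2C (ENSG00000081189, chr5:88717117-88904257) had 9 reads in 4 of the 24 libraries, with 20 at 0. The 2 other MEF2 genes that passed the filter were abundant, MEF2A at 9.57 ± 1.93 and MEF2D at 8.44 ± 1.91 RPKM in WT Ctr, and MEF2B was listed at 0. Among the MEF2 genes and their class IIa histone deacetylase repressors, 6 of 7 were tested. HDAC9 rose in the clone by 2.52 ± 0.26 without and 2.99 ± 0.24 with sorbitol (edgeR adjusted p = 2.01e-08 and 2.14e-10), and HDAC5 fell by 1.35 ± 0.10 and 1.24 ± 0.10 on the log2 scale (edgeR adjusted p = 3.46e-11 and 8.08e-11). HDAC4, which restrains RUNX2 and MEF2C in cartilage, rose by 0.73 ± 0.13 without sorbitol (edgeR adjusted p = 5.32e-05) and was at 0.16 ± 0.13 with it (edgeR adjusted p = 0.314). Against WNK2 trans Ctr the values without sorbitol were 3.32 ± 0.27 for HDAC9, −1.50 ± 0.10 for HDAC5 and 0.47 ± 0.13 for HDAC4, all of which passed.

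Of 12 co-regulators of the RUNX proteins, 11 were tested, and between WNK2- Sor and WT Sor 2 rose and 5 fell, where 46.3% of all genes tested passed. The list median log2 fold change was −0.34, against 0.02 over all genes tested. TLE2, a Groucho-type co-repressor, fell by 2.47 ± 0.19 on the log2 scale (edgeR adjusted p = 5.93e-11). TWIST2, an inhibitor of RUNX2, rose by 1.31 ± 0.09 and WWTR1, the Hippo pathway co-activator TAZ, fell by 1.08 ± 0.11 (edgeR adjusted p = 1.54e-11 and 1.56e-08). Between WNK2 trans Sor and WNK2 trans Ctr 3 rose and 5 fell, where 48.0% of all genes passed, with TLE2 at −1.34 ± 0.18 and TWIST2 at 0.55 ± 0.09. Against WT Ctr, where 39.2% passed, 3 rose and 4 fell, with TLE2 at −0.89 ± 0.18 and TWIST2 at 0.61 ± 0.09. Between WT Sor and WT Ctr, where 24.1% passed, 2 rose, TLE2 (0.54 ± 0.18) and TLE4 (0.43 ± 0.09), and 0 fell. With WNK2 trans Ctr as the reference, where 15.1% passed, only TLE4 did.

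Of 13 cofactors of SOX9 and other cartilage transcription factors, 10 were tested and CITED2 was listed at 0. Between WNK2- Sor and WT Sor 3 rose and 4 fell, where 46.3% of all genes tested passed, and the list median was 0.08. PAX9 rose by 2.08 ± 0.33 (edgeR adjusted p = 1.26e-05) and ARID5B, a SOX9 co-activator, was at 1190 ± 38.9 normalized counts in WT Sor and 456 ± 53.1 in WNK2- Sor (edgeR adjusted p = 1.09e-09). Between WNK2 trans Sor and WNK2 trans Ctr 1 rose and 5 fell, among them BARX1 by −2.40 ± 0.28 and ARID5B by −1.35 ± 0.12 (edgeR adjusted p = 1.69e-07 and 1.76e-09), with a list median of −0.59 where 48.0% of all genes passed. Against WT Ctr, where 39.2% passed, 1 rose and 4 fell (median −0.33), and the falls were smaller, −0.96 ± 0.30 for BARX1 and −0.37 ± 0.12 for ARID5B. From WT Ctr to WT Sor the same pair was higher, BARX1 by 0.77 ± 0.27 and ARID5B by 0.49 ± 0.12 (edgeR adjusted p = 0.0397 and 0.00452). With WNK2 trans Ctr as the reference ARID5B was lower in WT Sor, at −0.49 ± 0.12 (edgeR adjusted p = 0.00549), and BARX1 did not pass (−0.67 ± 0.25), so the direction of both turned with the reference.

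Cartilage matrix genes known as targets of the SOX trio were mostly lower in the clone than in WT and in WNK2 trans Sor. Of 15, 10 were tested. Between WNK2- Sor and WT Sor 0 rose and 7 fell, with a list median log2 fold change of −2.02, where 46.3% of all genes tested passed. Between WNK2- Ctr and WT Ctr 1 rose and 5 fell (median −1.03), between WNK2 trans Sor and WNK2 trans Ctr 2 rose and 7 fell (median −2.06), where 42.1% and 48.0% of all genes passed, and the medians over all genes in these 3 comparisons were 0.02, 0.00 and 0.01. With the other isotonic group as the reference, WNK2- Ctr had 0 higher and 7 lower (median −1.81, 47.7% of all genes called) and WNK2 trans Sor 1 higher and 6 lower (median −1.26, 39.2% called).

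Within the clone, sorbitol went with 1 of these genes higher and 2 lower, where 14.9% of all genes tested passed. From WT Ctr to WT Sor, where 24.1% passed, 1 was higher, ACAN (0.90 ± 0.33, edgeR adjusted p = 0.0469), and 0 lower. Against WNK2 trans Ctr, where 15.1% passed, ACAN turned to −0.47 ± 0.31 (edgeR adjusted p = 0.342), HAPLN1 was higher (0.52 ± 0.12) and COL2A1 lower (−1.61 ± 0.22, edgeR adjusted p = 9.38e-06). COL2A1 was at 115, 54.5, 67.1 and 94.3 normalized counts in WT Ctr and 4.74, 5.47, 6.03 and 8.33 in WNK2- Ctr, without overlap (log2 fold change −3.71 ± 0.29, edgeR adjusted p = 1.4e-10, or −4.83 ± 0.28 against WNK2 trans Ctr). ACAN, the aggrecan core protein, fell from 112 ± 11.3 in WT Sor to 10.7 ± 7.17 in WNK2- Sor (−3.38 ± 0.39, edgeR adjusted p = 8.09e-08).

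Unlike most of these genes, HAPLN1, the link protein, and MATN1 rose from WNK2 trans Ctr to WNK2 trans Sor, but against WT Ctr MATN1 was at 0.25 ± 0.50 and did not pass (edgeR adjusted p = 0.72). Against WNK2 trans Ctr HAPLN1 was higher by 1.34 ± 0.12 (edgeR adjusted p = 2.28e-09) and COL2A1 fell by 2.88 ± 0.24 on the log2 scale (edgeR adjusted p = 3.65e-10). Against WT Ctr HAPLN1 was higher by 0.54 ± 0.12. The libraries labelled WNK2 trans Ctr stood above WT Ctr in COL2A1 by 1.12 ± 0.21 (edgeR adjusted p = 0.000673), so the size of the fall in the transfected cells depended on the reference: for COL2A1 in WNK2 trans Sor it was −1.76 ± 0.24 against WT Ctr. The chondrocyte markers as a whole, including SOX9 at its listed 0, summed to 21.9 to 24.6 CPM in WNK2- Ctr and 22.6 to 27.5 CPM in WNK2- Sor. The sums were higher in unmodified cells, 91.7 to 105 CPM in WT Ctr and 84.9 to 90.7 CPM in WT Sor, and in the transfected groups 69.7 to 86.0 CPM without and 109 to 156 CPM with sorbitol. HAPLN1 alone made up 37.9 to 52.1 CPM and 101 to 151 CPM of these last sums. The 5 other tested markers fell between the same groups, where 48.0% of all genes tested passed. Of the fibroblast markers, 4 of 5 passed the filter, and these summed to 441 to 475 CPM in WT Ctr and 99.8 to 112 in WNK2- Ctr. Their part in the SOX and RUNX results was not tested.

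**Figure D5:**
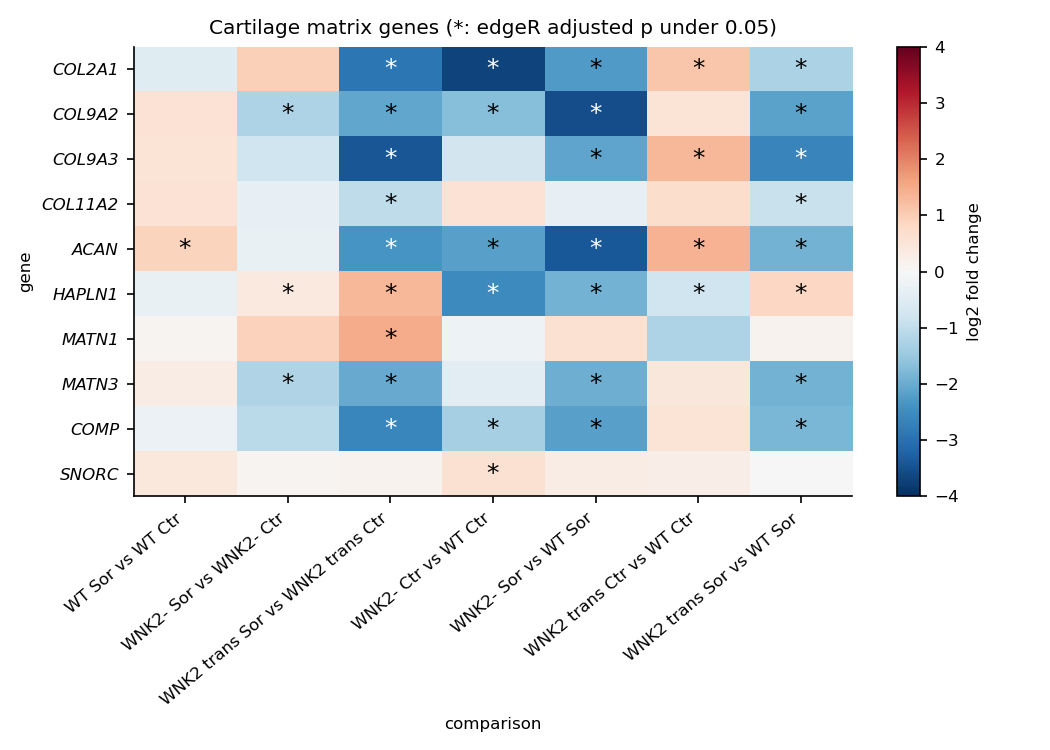
log2 fold change (colour, blue lower and red higher in the first group) of the 10 tested cartilage matrix genes (y axis) in 7 comparisons (x axis), with an asterisk where edgeR adjusted p was under 0.05. COL2A1, ACAN and COL9A2 are lower in WNK2- than in WT in both media, and HAPLN1 is higher in WNK2 trans Sor.

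The targets of RUNX2 and MEF2C in hypertrophic cartilage and bone gave 6 tested of 13, with COL10A1, SPP1 and BGLAP listed at 0. MMP13, the collagenase that RUNX2 activates, was at 240 ± 20.1 normalized counts in WT Ctr and 53.9 ± 13.6 in WNK2- Ctr (log2 fold change −2.15 ± 0.17, edgeR adjusted p = 2.09e-10). Between WNK2 trans Sor and WNK2 trans Ctr it rose by 0.91 ± 0.16 (edgeR adjusted p = 5.03e-05), where RUNX2 also rose, and between WT Sor and WT Ctr it fell by 1.01 ± 0.16 on the log2 scale (edgeR adjusted p = 7.08e-05), where RUNX2 was at 0.02. Both differences depended on the isotonic reference: with these exchanged, MMP13 was at −0.03 ± 0.16 in WNK2 trans Sor and −0.07 ± 0.16 in WT Sor, neither past the threshold, while the clone stayed lower (−1.21 ± 0.17 against WNK2 trans Ctr). ALPL, the mineralisation phosphatase, rose in the clone with sorbitol from 5.62 ± 3.47 to 22.4 ± 6.96 normalized counts (edgeR adjusted p = 0.018), where RUNX2 fell.

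Genes near SOX4 and RUNX2 on chromosome 6 had smaller median differences than SOX4 and RUNX2. Within 5 Mb of SOX4, the median log2 fold change of 65 tested genes was −0.22 between WNK2- Ctr and WT Ctr, with 4 higher and 21 lower. Between WNK2- Sor and WT Sor it was 0.00, with 13 higher and 16 lower. Within 5 Mb of RUNX2, 74 genes had medians of −0.21, with 10 higher and 25 lower, and −0.27, with 9 higher and 27 lower. Over all genes tested 42.1% and 46.3% passed, with medians of 0.00 and 0.02. The 126 near RUNX3 had medians of −0.10 and −0.01 and the 58 near RUNX1 of 0.10 and 0.12. Copy number of the clone was not analysed here.

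The genes whose pattern over the 24 libraries was most like each of these were found among 9647 genes by Pearson correlation of log2 CPM, given as a description since the libraries fall into 6 groups. For SOX4 they were KIAA0319L (r = 0.983), MYLIP (0.982) and PTN (0.980), for RUNX1 GBE1 (0.955), OSBPL10 (0.954) and DCLK2 (0.945), and for RUNX2 PARP14 (0.969), ACACA (0.968) and CADM1 (0.967). For RUNX3 they were CACNG7 (0.964), PLXNB1 (0.960) and PIANP (0.960), and for CBFB RBM3 (0.940), TRA2B (0.928) and AAGAB (0.922). None of these lists held another of the 9 genes. For SOX5 the highest value was lower, 0.787 with ASAP2, and the counts behind it were few.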

How the data were processed

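RNA-seq of poly(A) RNA from T/C-28a2 cells (NEBNext Ultra RNA kit) gave 24 libraries, 4 in each of 6 groups, taken from the sample labels. The authors deposited raw read counts per Ensembl gene, with no normalization. The submitters' processing notes name FastQC 0.11.9, HISAT2 2.2.1, HTSeq 2.0.2, DESeq2 1.38.3 and GRCh38. Strand setting and annotation release are not given in the sources used here, and HTSeq by default leaves out reads that fall on more than 1 feature, so genes overlapping others in the annotation used can lose reads. Of 62703 identifiers, 62625 had a symbol and 58279 were in GENCODE 29, which gave positions and exon lengths.

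Counts were fitted with edgeR 4.0.16 (R 4.3.3; quasi-likelihood test, 6 groups in a single fit, TMM scaling, genes kept by edgeR's filter with a minimum count of 10 and total of 15), with Benjamini-Hochberg adjustment over 16600 genes in each comparison and a threshold of 0.05. Standard errors were obtained from each log2 fold change and its F statistic. Levels between genes were compared as RPKM, over the union of exons and with TMM-scaled library totals, and read totals are given only to show how thinly a gene was counted. A total of 14153002 to 25664619 reads (median 17506505.5) set the precision. Replicate pairs of a group (36) differed beyond counting noise (chi-square per degree of freedom 2.3 to 67.9), so none was a repeat deposit. Scripts were tested on simulated data.

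The genes examined and the gene lists were chosen with earlier results of these data known. Named were the 9 genes, WNK2, in each list at most 3 genes per comparison with the largest change among those called and the 3 with the highest level, and the 3 genes most like each of the 9 (mean log2 CPM of at least 3). Genes listed at 0, housekeeping genes and the RUNX to CBFB ratio were singled out after values were seen. Alternatives were DESeq2 1.42.0, RLE size factors, no filter, at least 10 counts in every library, only the libraries compared, a replicate block, offsets for GC content and length (5 spline degrees of freedom; 96.3% of tested genes had a value), each library left out and, added after seeing the data, WNK2 trans Ctr in place of WT Ctr in the genotype interaction and the isotonic groups exchanged in the transfection interaction.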

Additional observations from a re-analysis of the deposited data

Results flagged for a closer look

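Normalized RUNX2 counts in WNK2 trans Sor were 1090, 1150 and 1120 in replicates 2 to 4 and 816 in replicate 1, a gap of 0.838 of the group's range, above Dixon's critical value at 95% for 4 samples. It was the only such case among 36 sets of 4 libraries checked (6 genes in 6 groups), where chance gives about 1 in 20. Leaving out each library in turn, RUNX2 kept its call between WNK2 trans Sor and WNK2 trans Ctr, with log2 fold changes of 0.65 to 0.79.

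The response to sorbitol differed between the WNK2- clone and WT by an interaction test for 3 genes, where 8.65% of all genes tested passed. The differences in log2 fold change were −0.65 for SOX4, −0.89 for RUNX2 and −0.81 for RUNX3. The response differed between transfected and untransfected cells for 5 genes, where 35.5% of all genes tested passed. The differences were −0.37 for SOX4, 0.88 for RUNX1, 0.69 for RUNX2, −0.60 for RUNX3 and 0.28 for CBFB. All 8 passed at an edgeR adjusted p of 0.05, but in the second set SOX4 lost the call without any of 9 single libraries and CBFB without any of 13. The first set held when WNK2 trans Ctr took the place of WT Ctr. Of the second only RUNX1 passed (1.04) when each sorbitol group was set against the other isotonic group, while SOX4 kept its size (−0.41) without passing.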

How the results depend on the processing

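Replicate numbers did not pair the samples: over 60 same-numbered pairs of libraries the correlation of deviations from the group means was −0.287 to 0.458 (median 0.013), and 9 of 24 libraries correlated best with their own number. With a replicate block, 1 call changed, the transfection interaction of CBFB (0.28, edgeR adjusted p = 0.0554), and counts of called genes stayed within 1.5 times. The calls of SOX4, RUNX1, RUNX2 and RUNX3 between WNK2- and WT and of SOX4, RUNX2 and RUNX3 for sorbitol in the clone passed under every alternative run.

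The number of all genes called moved by over 1.5 times in these cases. With only the libraries compared it was 4824 for sorbitol in the clone (2473 in the reported fit), 747 for WNK2 trans Ctr against WT Ctr (2082) and 3018 for WNK2 trans Sor against WT Ctr (6509). With GC and length offsets it was 3894 for sorbitol in the clone, 3126 for WNK2 trans Ctr against WT Ctr, 4032 for WT Sor against WNK2 trans Ctr (2499) and 2228 for the genotype interaction (1436). Leaving out single libraries, the genotype interaction gave 849 to 1908, the lowest without WNK2- Sor replicate 3 and 944 without WNK2- Ctr replicate 2, and with WNK2 trans Ctr in place of WT Ctr it gave 562.

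The number of the 6 genes called for sorbitol in WT was 3 with GC and length offsets and 1 to 2 leaving out single libraries. In the transfected cells it was 3 with only the libraries compared. For WNK2 trans Ctr against WT Ctr it was 1 with GC and length offsets and 0 to 1 leaving out single libraries. For WT Sor against WNK2 trans Ctr it was 0 without a filter, where CBFB missed at edgeR adjusted p = 0.0855, 2 with at least 10 counts in every library, with only the libraries compared and with DESeq2, 3 with GC and length offsets, and 1 to 2 leaving out single libraries. For WNK2 trans Sor against WT Ctr it was 1 with only the libraries compared. The transfection interaction gave 3 without a filter and with only the libraries compared, and 3 to 5 leaving out single libraries. With the isotonic references exchanged it gave 1, and 906 of all genes (5897). The cause was not tested.

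Among the 6 genes, directions turned only for differences that had not passed, except for CBFB in the transfection interaction. With GC and length offsets, CBFB was 0.06 between WNK2- Ctr and WT Ctr, −0.07 between WNK2 trans Sor and WT Sor and −0.02 in the transfection interaction (−0.08 with the isotonic references exchanged), and SOX4 was 0.00 between WNK2 trans Ctr and WT Ctr. Leaving out single libraries, sorbitol in WT gave SOX4 −0.11 to 0.07 and RUNX2 −0.04 to 0.08, and in the clone RUNX1 −0.02 to 0.05. WNK2 trans Ctr against WT Ctr gave SOX4 −0.07 to 0.10, SOX5 −0.51 to 0.17 and RUNX1 −0.02 to 0.14. WNK2 trans Sor against WT Sor gave SOX5 −0.04 to 0.36, and WT Sor against WNK2 trans Ctr gave SOX4 −0.06 to 0.01. Depth limits SOX5, SOX6, MEF2C and SOX8.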
